A study of Drosophila melanogaster with 2 samples.

Results

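The 301 binding summits described here lay at noncoding RNA genes of Drosophila melanogaster, out of 8170 reproducible summits of the protein CG3032 (3.68%, 95% exact binomial interval 3.29 to 4.12%). A summit is the position in a ChIP-seq peak where the signal was highest. Members had to lie more than 500 bp from every protein-coding transcription start site (TSS), and within 500 bp of a TSS, or inside an exon, of a gene whose Ensembl biotype is ncRNA. Without the first condition 457 summits would have qualified, and 156 of them (34.1%) were left out because a protein-coding TSS lay within 500 bp. Of the 5102 summits that were far from coding TSSs (called distal below), 5.90% were members.

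The single group consisted of whole prepupae, aged 24 hours and pooled over both sexes, of a transgenic line that stably expressed CG3032 joined at its C-terminal end to the fluorescent protein eGFP. Chromatin was precipitated with an antibody to GFP, from fragments of 200 to 800 bp by the labels' account, in 2 biological replicates that the labels number 2 and 3. No untagged, mutant or treated group was analysed here. All values therefore come from 1 tagged line, from a mixture of all tissues of the animal, and nothing in the labels states whether the native CG3032 gene was still present.

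Long noncoding RNAs (lncRNAs) are transcripts without a long reading frame, and in the fly they serve in dosage compensation, the heat shock response and transposon silencing. Antisense RNAs (asRNAs) are transcribed from the strand opposite to another gene. MicroRNAs are short regulators that are cut from hairpins, and many fly hairpins lie inside longer noncoding host transcripts. Most fly lncRNA genes carry only a CR number, and for those no role is given here.

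The 8 strongest members for which sequence is shown illustrate the DNA under these summits, since most of it was rich in A and T. Each line below gives 61 bases centred on the summit, read 5′ to 3′ on the plus strand of dm6 from the RefSeq copy of that assembly. Capitals mark matches to the searched motifs, which were TATAAA in Vinr and CR46036 and the su(Hw) word, GCATACTTT on the other strand, in CR46102.
lncRNA:Vinr (chrX:12751304-12751364): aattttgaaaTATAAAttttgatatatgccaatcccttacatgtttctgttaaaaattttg
lncRNA:CR44619 (chrX:12752341-12752401): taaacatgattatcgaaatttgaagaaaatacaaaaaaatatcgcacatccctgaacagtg
lncRNA:CR46035 (chr3R:17704387-17704447): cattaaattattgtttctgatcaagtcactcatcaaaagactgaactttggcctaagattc
lncRNA:CR31044 (chr3R:29214408-29214468): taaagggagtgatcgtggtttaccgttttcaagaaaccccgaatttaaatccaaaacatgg
lncRNA:CR46102 (chr3R:25738162-25738222): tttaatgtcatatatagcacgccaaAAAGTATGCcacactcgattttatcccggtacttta
lncRNA:CR44409 (chr2L:17430175-17430235): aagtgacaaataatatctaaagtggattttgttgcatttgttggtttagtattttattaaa
lncRNA:CR46036 (chr3R:17700557-17700617): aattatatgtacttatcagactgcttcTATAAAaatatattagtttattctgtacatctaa
lncRNA:CR44676 (chr3L:19560801-19560861): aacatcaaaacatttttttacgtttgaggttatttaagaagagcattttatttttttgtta

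The A+T content of these 8 stretches ran from 60.7% at CR31044 to 78.7% at Vinr, CR46036 and CR44676. None of them held the DNA replication-related element (DRE), TATCGATA, or core promoter Motif 1, GGTCACACT. Across all 301 members the G+C content of the 201 bases around the summit was 34.4 ± 7.98% (SD over members), against 43.6 ± 8.19% in a window of the same length centred 500 bp away. The summit window had the lower G+C content at 235 members (78.1%), beside 79% of all 8170 summits. Over all 8170 summits the means were 34.4% at the summit and 43.8% in the flank. The mean dip in G+C at members was thus of the size seen over the whole list. G+C content was 32.1% at members that touched only a TSS window, beside 44.4% in their flanks. It was 35.1% at those that lay only in an exon (flanks 43.9%) and 38.3% at those that did both (flanks 41.6%). The dip was thus smallest at members that did both.

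Members were found mainly at lncRNA genes. By the nearest noncoding gene they contacted, 260 were named for a lncRNA, 25 for an asRNA, 13 for a microRNA precursor and 3 for another small or snoRNA host RNA. In all, 264 of 2780 annotated noncoding genes had at least 1 member (9.50%, 8.43 to 10.7%). Among lncRNA genes the share was 226 of 1944 (11.6%, 10.2 to 13.1%), and among asRNA genes it was 21 of 503 (4.17%, 2.60 to 6.31%), so the intervals of these shares did not overlap. MicroRNA precursors had 14 of 260 (5.38%, 2.98 to 8.87%). asRNA genes often start close to a coding TSS, which the rule excludes. With only genes that have a TSS far from coding TSSs, the shares were 210 of 1683 lncRNA genes (12.5%, 10.9 to 14.1%) and 14 of 321 asRNA genes (4.36%, 2.41 to 7.21%). For another 62 asRNA genes the only reproducible summit was one left out for its coding TSS, for 116 a summit was present only in the longer list of 30000 peaks, and 304 had none in either list.

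The DNA that could hold a member measured 3.417 Mb, or 2.55% of the chromosome arms, and carried 88.1 summits per Mb. Other distal DNA carried 41.7 per Mb and the windows around coding TSSs 200.1 per Mb. Between coding genes, noncoding TSS windows and exons held 98.9 members per Mb (95% exact Poisson interval 85.8 to 113), and the remaining DNA there held 40.0 summits per Mb (38.0 to 42.0). Inside coding genes the values were 71.6 (58.0 to 87.3) and 42.6 (41.1 to 44.0) per Mb. Density was thus higher in noncoding TSS and exon DNA in both settings, with intervals that did not overlap. The remaining DNA inside coding genes includes coding exons, however, and distal coding exons as a whole held 4.38 summits per Mb. Distal coding introns as a whole held 62.0 per Mb (59.9 to 64.2), within the interval of 58.0 to 87.3. Against introns alone, the intervals inside coding genes thus overlapped. By chromosome arm, the density of members ran from 79.2 per Mb for 2L and 80.3 for 3R through 93.2 for X and 97.6 for 3L to 99.1 for 2R, and chromosome 4 had a single member.

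Summit density around lncRNA start sites was lower over the first 200 bp downstream than in some bins on either side. In 100 bp bins over distal DNA, density was highest upstream at 101 to 200 bp before the TSS, with 28 summit-TSS pairs, or 160 per Mb (95% exact Poisson interval 107 to 232). Over the first 100 bp downstream it was 49.9 per Mb (22.8 to 94.8) from 9 pairs, and over the next 100 bp 55.1 per Mb (26.4 to 101) from 10. It then reached 159 per Mb (107 to 227) from 30 pairs at 400 to 499 bp and 199 per Mb (141 to 273) from 38 pairs at 500 to 599 bp. The intervals of these 3 high bins lay above those of the first 200 bp downstream. The high bins were picked for their height, so this separation is partly built in. The bins beside the upstream one, 145 per Mb (93.8 to 214) at 201 to 300 bp and 135 (86.5 to 201) within 100 bp of the TSS, had intervals that overlapped the low ones. Farther upstream density also varied, up to 123 per Mb (77.3 to 187) at 901 to 1000 bp, an interval that overlaps that of the upstream high bin. Summits past 500 bp are members only where they lie in an exon or near another noncoding TSS. Density around coding TSSs was 859 per Mb (819 to 901) at 101 to 200 bp upstream and 201 per Mb (182 to 222) over the first 100 bp downstream. It was 97.9 (84.6 to 113) over the next 100 bp, 45.4 per Mb (36.4 to 55.9) at 200 to 299 bp downstream and 62.7 per Mb (52.1 to 74.8) at 500 to 599 bp downstream. Annotated lncRNA and asRNA genes had a median length of 720 bp. The coding windows hold no such distal filter, so the heights of the profiles are not on an equal footing.

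**Figure D1:**
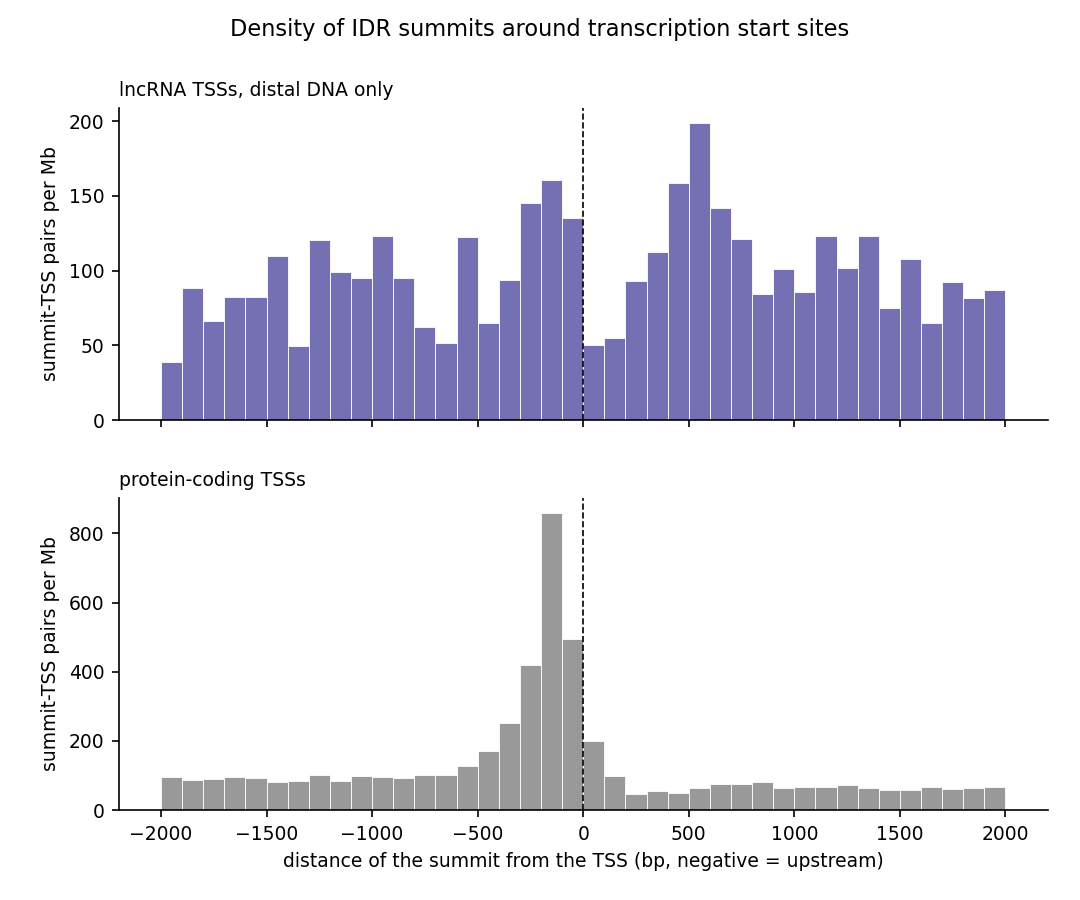
Density of reproducible (IDR) summits in 100 bp bins by distance from lncRNA TSSs (upper, distal DNA only) and protein-coding TSSs (lower), in summit-TSS pairs per Mb of DNA. Around lncRNA TSSs the bins just upstream reach 160 per Mb, and those over the first 200 bp downstream drop to about 50. The bin at 500 to 599 bp downstream reaches 199, and bins farther upstream fall as low as 38.7. Density at coding TSSs is highest just upstream and falls over the first 300 bp downstream.

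Of the 216 members within 500 bp of a noncoding TSS, 124 lay upstream of it (57.4%, 50.5 to 64.1%), with a median position of -61 bp. Among protein-coding promoter summits 80.6% lay upstream, with a median of -114 bp. Close to the noncoding TSS the upstream side held more: 62 members lay up to 200 bp upstream and 25 up to 200 bp downstream. Farther out the sides were near equal, with 62 members upstream and 67 downstream. asRNA members were upstream at 16 of 21 (76.2%, 52.8 to 91.8%), with a median of -216 bp, and lncRNA members at 99 of 179 (55.3%, 47.7 to 62.7%), with a median of -45 bp, and these intervals overlap. For microRNAs the annotation holds the hairpin and its mature products as separate records of biotype ncRNA, and the start of each counted as a TSS although none is the start of the primary transcript. Of 13 such members, 8 lay upstream of the nearest record and 6 upstream of the hairpin start. With hairpin starts alone, 122 members would lie upstream of a TSS, and mir-280 and mir-4968, at 507 and 558 bp, would not be members.

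By contact, 144 members touched only a TSS window, 85 only an exon and 72 both. Of the 144 outside exons, 110 lay upstream of the nearest noncoding TSS and 34 downstream, and 22 of those 34 lay past the 3′ end of the gene, the others within it. The lncRNA CR45251, 349 bp long, had a member on each side. One was 349 bp upstream of its start with signals of 355.0 in replicate 2 and 587.3 in replicate 3, and the other 349 bp downstream, just past its 3′ end, with 321.6 and 678.8.

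Taking all reproducible summits in distal DNA, the 500 bp before lncRNA genes held 119 per Mb (95.6 to 147), their exons 85.4 (72.1 to 100.5), their introns 70.3 (59.4 to 82.6) and the 500 bp after their 3′ ends 131 (106 to 159). Only the summits in exons or near a TSS are members. Exons of lncRNA genes differed sharply from exons of coding genes, which in distal DNA held 4.38 per Mb (3.61 to 5.27). The footing was unequal, since the filter removed DNA within 500 bp of coding TSSs but kept DNA near lncRNA TSSs. Distal noncoding exon DNA outside the noncoding TSS windows, over all kinds of noncoding gene, held 71.65 per Mb. The same unequal footing holds for the other coding values below. asRNA exons held 20.3 per Mb (9.30 to 38.6). Distal introns of coding genes held 62.0 per Mb (59.9 to 64.2), an interval that overlapped the one for introns of lncRNA genes, and the 500 bp after coding genes held 44.4 per Mb (35.6 to 54.7). Base composition moved with these densities in part: G+C content was 43.4% in lncRNA exons, 47.1% in asRNA exons, 48.8% in distal coding exons and 38.8% after lncRNA genes. Its part in the densities was not tested.

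**Figure D2:**
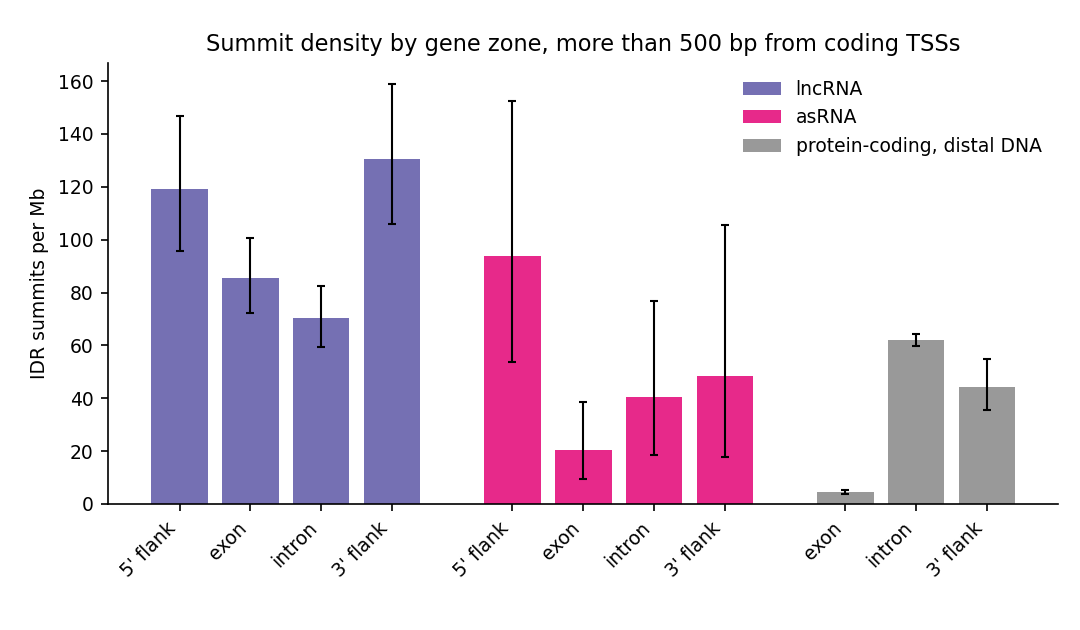
Reproducible summits per Mb in the 500 bp before genes (5′ flank), exons, introns and the 500 bp after genes (3′ flank), for lncRNA, asRNA and protein-coding genes, over DNA more than 500 bp from coding TSSs. Bars are densities, lines are 95% exact Poisson intervals that cover counting error only. Coding genes have no 5′ flank bar, because the distance filter removes that DNA. Windows around coding TSSs, not drawn, held 200.1 per Mb. Of the bars shown, the lncRNA flanks are the highest at 119 and 131 per Mb, and distal coding exons the lowest at 4.38.

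Signals at members spanned nearly the range of the whole list. The signal is the authors' own value for each peak, its unit is undefined in the labels and files, and it serves here for ranking and description only. Members had a median signal of 330 (95% interval of the median 304 to 391), quartiles of 205 and 685, and extremes of 151.5 and 5803. All 8170 summits had a median of 301.5, and protein-coding promoter summits 298.2. The 817 strongest summits of the list (10%) included 38 members, which is 12.6% of the members, and the 4085 strongest (50%) included 168 (55.8%). Members that touched only a TSS window had 25 of 144 among those 817 (17.4%), those only in an exon 8 of 85 (9.41%) and those with both 5 of 72 (6.94%), with median signals of 350.3, 339.8 and 314.4.

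The strongest member lay in an exon of Vinr on chromosome X at position 12751334. Vinr is a virus-induced noncoding RNA of the antiviral response. Its signal was 2374 in replicate 2, where it ranked 3, and 3304 in replicate 3, where it ranked 10, and the combined signal of 5803 ranked 4 among all summits. The next strongest, at position 12752371, lay in an exon of the overlapping lncRNA CR44619, at 1387 and 2853, ranks 20 and 21. CR44619 had a further strong summit near its 3′ end at position 12754522, at 682.4 and 1451. In both replicates these 3 summits ranked within the first 170 of 30000. The weak ones among them, at position 12750390 in Vinr and 12753934 in CR44619, had 27.6 and 40.92 in replicate 2 and 154.8 and 122.4 in replicate 3. The protein-coding TSSs nearest to the 5 summits were those of CG4004 and Paics, at least 4073 bp away.

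An intron of osa, which encodes a subunit of the Brahma chromatin remodelling complex, held 4 members at a pair of lncRNA genes on 3R. The member in an exon of CR46035 had signals of 1297 in replicate 2 and 2829 in replicate 3, ranks 25 and 22. The one 205 bp upstream of the CR46035 start had 388.3 and 670.9. The member 154 bp upstream of CR46036 had 797.5 and 1956, and a weak one in its exon had 137.5 in replicate 3 and no match in replicate 2. In replicate 3 the other 3 summits of this intron were thus well above the weak one, and all 4 were at least 13516 bp from a coding TSS.

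CR31044 on 3R is annotated as the host transcript of the microRNA mir-279, which acts in the fly's olfactory and circadian systems. A member 124 bp upstream of the CR31044 start had 993.8 in replicate 2 (rank 67) and 3138 in replicate 3 (rank 14). A much weaker member, 352 bp before the mir-279 hairpin, had 43.17 and 313.4, ranks 9732 and 2562. The summit at the start of the host transcript was thus the stronger one in both replicates.

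Other members among the 10 strongest were spread over single genes. CR46102, inside the lipophorin receptor gene LpR2, had 1008 and 2092 in replicates 2 and 3. CR44409, inside the NF-κB gene Dif, had 1119 and 1861, with the summit 499 bp past the CR44409 start. These values put both in the first 80 ranks of each replicate. CR44676 on 3L had 683.9 and 2065, CR45595 on 3R had 946.3 and 1650, and CR44339 on 2R had 621.4 and 1652. The CR44339 summit lay 4220 bp upstream of Psc, a Polycomb group gene.

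Several further members of the 25 strongest lay close to well-known coding genes, beyond the 500 bp limit. CR45668, with 566.7 in replicate 2 and 1372 in replicate 3, lay 670 bp upstream of Act5C, a cytoplasmic actin gene. CR42657, with 401.2 and 1001, lay 677 bp upstream of nej, the gene of the histone acetyltransferase CBP. CR44742 and CR44743 shared a summit with 639.2 and 1149, 1192 bp upstream of vri, a circadian repressor gene. Whether such a summit belongs to the coding or to the noncoding gene cannot be told apart from its position. CR45243, with 803.3 and 1033, lay 1424 bp upstream of fng, a glycosyltransferase of the Notch pathway, and CR45541, with 499.4 and 872.7, lay 1755 bp upstream of the hexokinase gene Hex-A. Inside coding genes, CR44331 in puc, the phosphatase of JNK signalling, had 453.1 and 965.2, and CR45997 in mbl, a splicing regulator, had 532.1 and 1018. The strongest asRNA member, CR46145 in the tyrosine kinase gene FER, lay 13 bp upstream of its start with 566.5 and 1501. The remaining members of the 25, namely CR43626, CR44363, CR45325, CR45232, CR44276 and CR45424, had combined signals from 1221 to 2100.

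**Figure D3:**
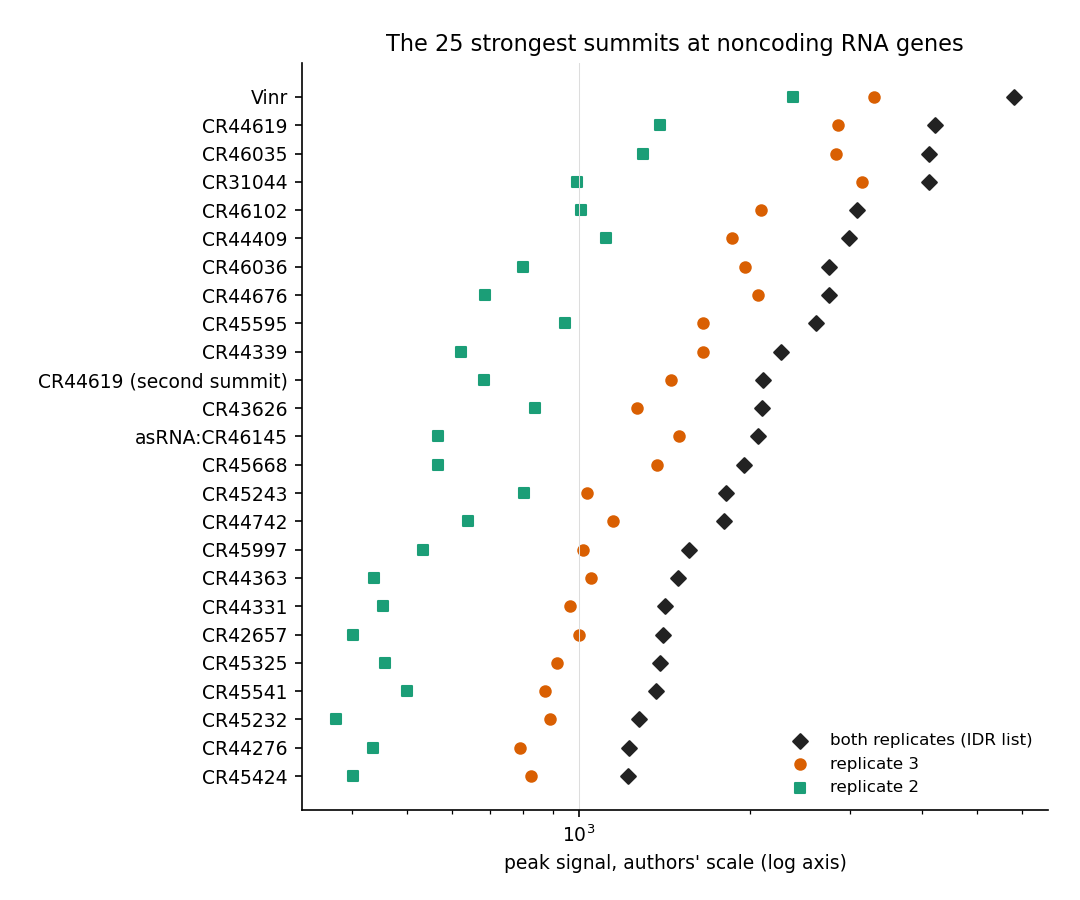
Signal of the 25 strongest members in replicate 2, replicate 3 and the list from both replicates, on a log axis in the authors' undefined unit. Each row is a summit, named by its noncoding gene, and Vinr is highest in all 3 lists. Replicate 3 lies above replicate 2 in every row, and the scales of the lists need not be equal.

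Named noncoding RNAs ranged widely in signal. Vinr, described above, was the strongest member at 5803, and Uhg4 and sisRNA:4, given below, had combined signals of 818.3 and 803.3. For 4 other lncRNAs with known roles, the highest combined signals ran from 164.2 at acal to 1107 at Hsromega. Hsromega, the stress-induced RNA that organises omega speckles in the nucleus, had a member 211 bp past its start with 316.0 in replicate 2 and 786.0 in replicate 3, and a weaker one in an exon with 57.05 and 109.1. flam, the flamenco locus that gives rise to RNAs silencing retrotransposons in ovarian somatic cells, had a member 175 bp before its start with 45.66 and 200.4. yar, a lncRNA of the achaete region that affects sleep, had 93.37 and 220.5 near its 3′ end, and acal, a lncRNA of dorsal closure, had 55.78 and 107.5. Only Hsromega of these 4 ranked in the first 1000 of both replicates.

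Several other well-known noncoding genes had no member. Since 264 of 2780 noncoding genes (9.50%) had one, most genes lacked a member, and these absences say little about the genes named. roX1 and roX2, the RNAs of the dosage compensation complex, had summits only in the longer list, at highest signals of 70.83 (rank 15315 of 30000) and 81.21 (rank 13777), below the lowest signal of 150.5 in the reproducible list. Of the bithorax complex RNAs, bxd and iab4 had no summit in either list and iab8 had 2 in the longer list, the higher at 30.91. Of 4 components of ribonucleoprotein complexes, the RNaseMRP RNA alone had summits, 2 in the longer list with the higher at 130.6. The let7C host transcript, which makes the let-7 microRNA during metamorphosis, had none. Of 10 snoRNA host genes, Uhg4 had a member, 74 bp before its start, at 270.0 in replicate 2 and 536.5 in replicate 3, and at 3 others (Uhg2, Uhg5 and Uhg8) the one reproducible summit was left out because a coding TSS lay within 500 bp. In the immune list of 5, Vinr had members and CR30055 had only a left-out summit, at 449.5.

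MicroRNA genes contributed 14 members with contact to a hairpin or to a mature microRNA record, of which 5 also touched a lncRNA or asRNA. Of 37 noncoding genes that contain a microRNA hairpin, a list drawn up with these data in view, 13 had a member (35.1%), beside 9.50% of all noncoding genes. The genes on that list had a median length of 6436 bp, beside 558 bp over all noncoding genes, and the part of length in the count was not tested. CR43334, the host of bantam, which promotes growth and suppresses cell death, had 5. The strongest had 364.8 in replicate 2 and 843.2 in replicate 3, and the member in an exon 441 bp past the mir-ban hairpin start had 116.7 and 186.5. CR43650 on 2R also had 5, from 41.59 to 211.5 in replicate 2 and from 162.0 to 587.0 in replicate 3. CR46006 on 3L had 4, the strongest 137 bp before mir-276a with 120.0 and 473.7, and 2 of the 4 had no match in replicate 2.

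Among the other microRNAs, mir-9377 had the strongest member, inside Tis11, with 299.5 and 592.3. mir-2491 had 178.9 and 401.5, mir-275 had 121.4 and 223.4, and mir-92b, inside jigr1, had 86.33 and 196.8. mir-4968, mir-4914, mir-4974, mir-280 and mir-9385 ranged from 64.5 to 71.66 in replicate 2 and from 87.82 to 237.7 in replicate 3. mir-4962 had no match in replicate 2 and 198.5 in replicate 3, and the summit 449 bp past an internal start of CR45361, the start of its shorter transcript, and near mir-1, a muscle microRNA, had 51.69 and 121.0. No microRNA member was among the 817 strongest summits. Those are 10% of the list, so with 13 members named for a microRNA the absence says little. The other small RNAs were sisRNA:4, a stable intronic RNA from the neural gene dpn, at 247.1 and 557.4, and sncRNA:204, at 96.43 and 179.6.

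Most members were alone at their gene: 221 genes had 1 member, 37 had 2, 3 had 3, CR46006 had 4, and CR43334 and CR43650 had 5. On the other side, 286 members touched 1 noncoding gene and 15 touched several, up to 4. With members at most 5000 bp apart joined into runs, 51 runs held 121 members (40.2%). No such share was worked out for other summits, so whether members lie closer together than others was not tested. The largest runs were the 5 members at Vinr and CR44619 over 4132 bp and the 5 at CR43334 over 8917 bp. Those 2 runs differed in height, since combined signals were 170.4, 5803, 4226, 157.0 and 2110 in the first and 298.6, 490.7, 420.6, 1209 and 312.2 in the second. Members within a run share a stretch of chromatin and are not independent of each other, and 6 members shared a peak interval with another summit.

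**Figure D4:**
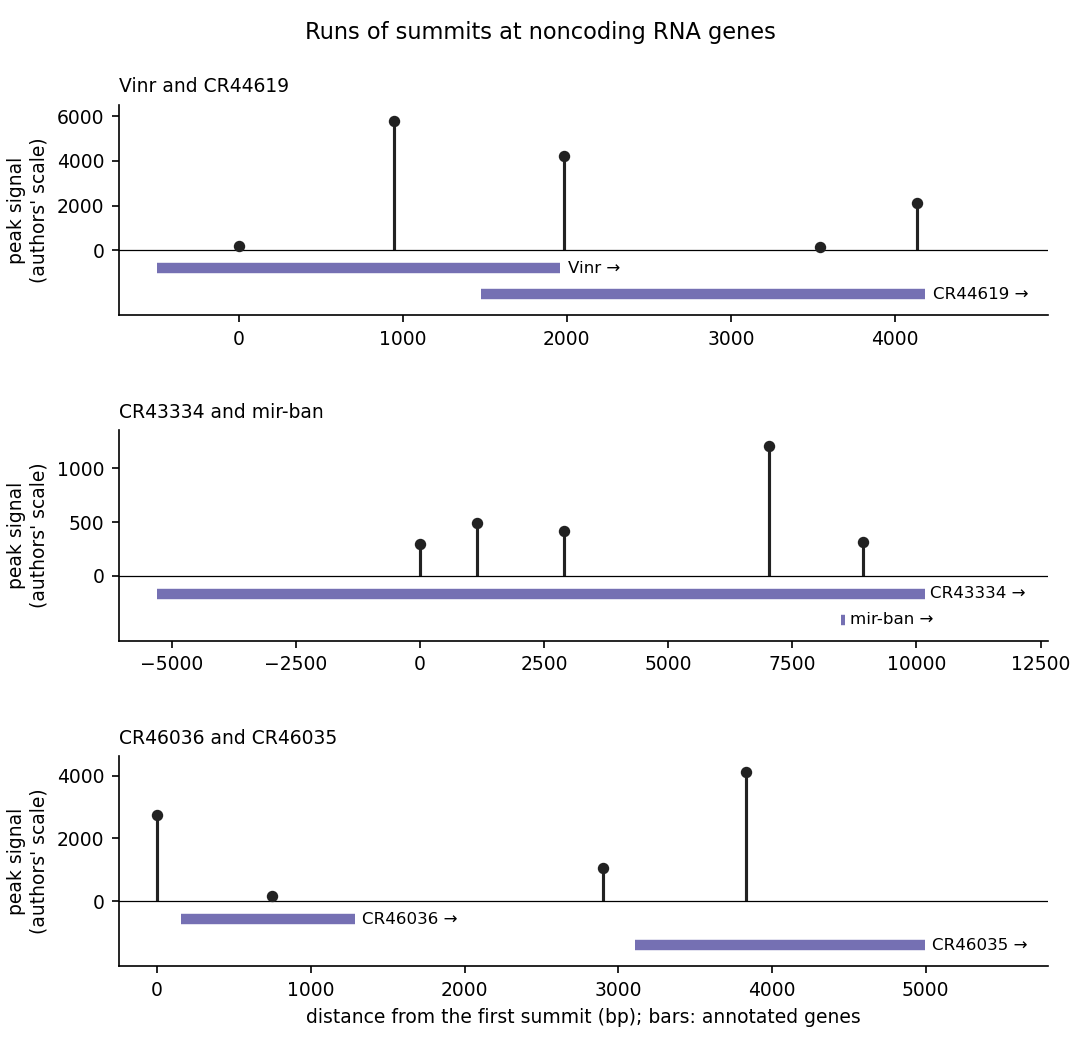
Combined signal of each member (stems, authors' scale) by distance in bp from the first summit in 3 runs of members, with bars for the annotated genes and arrows for their strand. The Vinr run holds 3 tall and 2 low summits, the CR43334 run 5 of 298.6 to 1209, and the osa intron run has its tallest summits, 2749 and 4128, just before CR46036 and within CR46035.

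In relation to protein-coding genes, 97 members lay inside a coding gene (32.2%, 27.0 to 37.8%), beside 66.2% of all distal summits. The DNA that could hold a member was itself inside coding genes at 39.7% and other distal DNA at 66.9%. Of the 97, the noncoding gene ran on the strand opposite to the coding gene at 68 (70.1%) and on the same strand at 28, and 1 member had coding genes on both strands. asRNA members lay inside a coding gene at 18 of 25 and lncRNA members at 70 of 260. Only 8 members overlapped an exon of a coding gene, in CG43389, ogre, jigr1, CG11309, bip1, CG31689, Plzf and ftz-f1. The host with most members was osa with 4, followed by CG14434 with 3. The distance from a member to the nearest coding TSS had a median of 3724 bp (3136 to 4220) and reached 58814 bp, at CR46006, beside a median of 4352 bp (4105 to 4533) for other distal summits. Within 1000 bp of a coding TSS lay 35 members, and 59 were beyond 10000 bp.

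Each replicate list held 30000 peaks, and its 8170 highest signals are called strong here, to match the length of the combined list. A strong summit of both replicates lay within 100 bp of 229 members (76.1%, 70.9 to 80.8%), beside 72.1% of all reproducible summits. In replicate 2 alone 17 members were strong, in replicate 3 alone 48, and 7 were strong in neither. With the full lists, 290 members had a match in replicate 2, 297 in replicate 3 and 286 in both (95%), beside 90.9% of all summits. The reproducible list was derived from the replicate lists, so a high share is partly built in. The median signal of members was 107.5 in replicate 2 and 229.7 in replicate 3, on scales that need not be equal.

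Over the 286 members with both matches, ranks in the replicates had a Spearman rho of 0.866, and over all matched summits it was 0.795. This is a description across sites, since all sites share the same pair of libraries. Ranks differed most at members of low signal. This is partly built in, since a peak that is strong in both replicates has small ranks that cannot lie far apart. CR45642 ranked 22716 in replicate 2 and 10007 in replicate 3, and CR45372 ranked 29226 and 5268. CR43642 ranked 25674 and 5572, CR43974 ranked 17401 and 6119, and CR32218 ranked 16781 and 5970. All 5 were stronger by rank in replicate 3, and all had combined signals under 200. The 3 weakest members, at CR43234, CR34044 and CR44943, had 62.94, 32.35 and 63.17 in replicate 2 and 93.98, 123.4 and 81.85 in replicate 3.

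**Figure D5:**
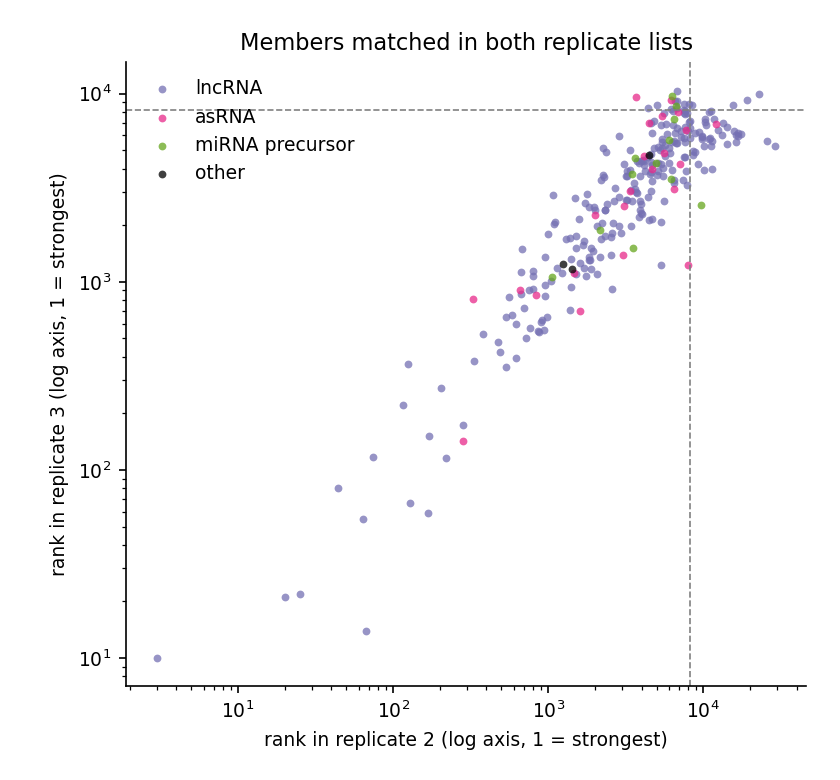
Rank of each of the 286 members matched in both replicates (1 is the strongest), on log axes, coloured by kind of noncoding gene. Dashed lines mark rank 8170, the limit for a strong summit. Points run along the diagonal (rho 0.866) and spread most at low signal, where more of them lie past the line in replicate 2 than in replicate 3.

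Motifs were searched on both strands within 100 bp of the summit, and a match is a description of letters, not of a bound factor. DRE, TATCGATA, was at 0 of 301 members, which allows a share of up to 1.22%, beside 2.8% of all reproducible summits, 6.78% of coding promoter summits and 0.441% of intronic summits. Motif 1, GGTCACACT, was also at 0 of 301, beside 1.41% of all summits and 3.33% of coding promoter summits. For both words the limit of 1.22% at members was below the share at coding promoters and above the share at intronic summits (0.347% for Motif 1). Ohler motif 7, another core promoter motif, was at 3 members (0.997%, 0.206 to 2.88%), beside 8.47% of coding promoter summits and 1.70% of intronic ones, and Ohler motif 6 was at 3 members (0.997%, 0.206 to 2.88%), beside 0.673% of all summits.

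TATAAA, the TATA box, was at 116 members (38.5%, 33.0 to 44.3%), beside 38.5% of all summits, and at 58 of the windows 500 bp away (19.3%). The TATA share at members was the same as in the whole list, and both were above their flanks. GAGAG, the word of GAGA factor, was at 63 members (20.9%, 16.5 to 26.0%), beside 20.9% of all summits, and at 76 of the flanks (25.2%), so it was not more frequent at the summits. The E-box CACGTG was at 4 members (1.33%), beside 1.52% of all summits, and the Zelda word CAGGTAG at 4 (1.33%), beside 0.759%. The CTCF core AGNNGGCGC was at 7 members (2.33%), beside 1.75% of all summits, and the su(Hw) word GCATACTTT at 2 (0.664%), beside 0.759%. All 4 shares were near those of the whole list. At least 1 of the 10 motifs was at 169 members (56.1%, 50.3 to 61.8%) and at 134 flanks (44.5%), beside 59.7% of all summits. Of the 2 frequent words, only TATAAA was more common at members than in flanks. The E-box, Zelda and CTCF words were at 6, 7 and 8 flanks and DRE at 1, all above their counts at members. Ohler motifs 6 and 7 and the su(Hw) word were at 0, 2 and 0 flanks, below their counts at members. No member lay in an annotated transposable element, beside 18 of the 8170 summits, so the count at members says little.

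The 8-base words most enriched at the other 7869 summits over their flanks were made of A and T only, led by AAAAATAT, ATTTAAAA and AAAATATA. Words overlap and share bases, also with TATAAA. Since they were ranked without the members, members could be read against them: AAAAATAT was at 47 members (15.6%, 11.7 to 20.2%) and 21 flanks (6.98%), beside 14.2% of the other summits and 5.24% of their flanks. At least 1 of the first 10 words was at 168 members (55.8%, 50 to 61.5%) and 28.2% of their flanks, beside 55.4% and 25.1% for the other summits. The A and T words of the remaining list were therefore as frequent at members as elsewhere.

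At the edges of the rule, CR44200 and CR44831 were the members closest to a coding TSS, at 503 and 512 bp, with signals of 174.3 and 157.8. Just left out were summits at CR43243 and CR46044, 478 and 476 bp from a coding TSS, at 893.2 and 816.1. Just inside the noncoding limit were CR44409 at 499 bp and CR45868 at 498 bp, with signals of 2984 and 1215, and just outside were summits 503 bp from CR43650 and 504 bp from CR44587, at 200.8 and 248.5. Some strong members thus owe their place to a few base pairs.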

How the data were processed

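The ChIP-seq peak lists were deposited by the authors in narrowPeak format on dm6: 1 list for each of the 2 replicates and 1 for the series, each of 30000 peaks, and an IDR (irreproducible discovery rate) thresholded list of 8170. Per the file headers, peaks were called against a control alignment, and the IDR list was made from the replicate and series lists. No aligner, peak caller, setting or IDR threshold is named in the labels or headers (not given in the sources used here). The control was not analysed here. The signal of each peak is the authors' deposited value. The −log10 q-value deposited by the authors was at its ceiling for all 8170 IDR peaks, so signal was used for ranking. The summit offset is the other deposited value used. The lists give no read counts, so depth is unknown, and exact binomial and Poisson intervals (95%) cover counting error over peaks only.

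Genes came from Ensembl BDGP6.54, release 115, which is dm6, with 481 mature microRNA records counted under their hairpin gene but keeping their own starts as TSSs, and sequence from RefSeq. A member takes the name of the noncoding gene with the nearest TSS in reach, or else of its exon. Summits were matched within 100 bp. Python 3.11.15, numpy 2.4.6, pandas 2.3.3 and scipy 1.17.1 were used, and the counting code was tested on simulated summits. No test between groups was possible with 1 group, and the labels say of the replicates only that they are biological. Genes named are the 25 strongest, all without a CR number, the 3 weakest, those with most members, those differing most in rank and those at the limits. Some further members, such as CR45251, were named after their values were seen. The members, gene lists and motifs were chosen with earlier results of these data known. Of the list symbols, 7 had no match in the annotation.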

Additional observations from a re-analysis of the deposited data

How the results depend on the processing

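Over 13 results, 67 of 85 alternative values stayed within the interval or spread of the reported value, or for the count of genes within 1.5 times of it, and 18 moved. The share of summits at noncoding RNA genes, 3.68% as reported, was 2.63% and 5.37% with a noncoding TSS window of 200 and 1000 bp, 4.36% and 3.26% with a coding TSS window of 200 and 1000 bp, 1.92% with exon contact only and 2.64% with TSS contact only. The 264 genes became 155 with the stronger part of the list, 743 with the whole-series list and 135 with exons only, and ran from 188 to 378 with the other settings. The share strong in both replicates was 95.8% in the stronger part of the list, 63.1% with matching within 50 bp and 95% with full replicate lists. The upstream share was 71.3% and 49.4% with windows of 200 and 1000 bp and 76.4% outside exons. Within 50 bp the share with any motif was 36.2% (flanks 26.9%) and with TATAAA 25.2%. From the strong summits of 1 replicate alone, the share of summits was 3.38 to 3.63%, the genes 246 to 265 and the upstream share 57.9 to 59.1%. DRE was found at 0.337% when replicate 2 was left out. A choice of lncRNA and asRNA genes only, made after seeing the data, gave 3.54% and 247 genes. No paired analysis was possible because there was 1 group. Depth is unknown, so absence of a summit does not show absence of binding.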
